A study of Mus musculus with 16 samples.

Results

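The major urinary proteins (MUPs) are a family of small secreted lipocalins encoded by a cluster of Mup genes on mouse chromosome 4. Their messenger RNAs were followed here in the livers of mice fed ethanol with or without garlic compounds. Members were 7 named genes (Mup1, Mup2, Mup3, Mup4, Mup5, Mup20 and Mup21), and every array probe whose annotated gene symbol was 1 of these names was taken, whatever its values. This gave 7 of the 25697 probes on the array. They covered 4 of the 7 members, out of 16593 genes with a probe, with 3 probes for Mup5, 2 for Mup2 and 1 each for Mup20 and Mup21. Mup1, Mup3 and Mup4 had no probe under their own symbol. Of the 7 probes, 6 passed the filter on dim signal, and 1 of the Mup5 probes was detected on 0 of 16 arrays.

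The livers came from 16 male C57BL/6 mice in 4 groups of 4, which the labels call biological replicates. DADS mice were fed the Lieber-DeCarli ethanol liquid diet and gavaged daily for 4 weeks with diallyl disulfide (DADS, an allyl sulfide of garlic) at 15 mg/kg. Garlic oil mice were fed the ethanol diet and gavaged with garlic oil, a mixture of garlic sulfides, at 50 mg/kg. Alcohol mice were fed the ethanol diet, and pair-fed control mice received the corresponding ethanol-free liquid diet. In all groups the gavage volume was 0.1 ml of olive oil, which was given alone to alcohol and control mice. The ethanol diet is a model of early alcoholic fatty liver, and the comparisons asked what ethanol changed and what the garlic compounds changed on top of it.

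MUPs are made by hepatocytes, released into blood and filtered into urine, where they carry volatile pheromones in a hydrophobic pocket. Male mice make far more of them than females, because the pulsatile growth hormone secretion of males drives the liver genes through the growth hormone receptor and STAT5, with glucocorticoids, thyroid hormone and testosterone also acting on them. MUP1 is also known as a circulating signal in glucose and lipid metabolism, and MUP20 (darcin) as the male pheromone that attracts females. In the RefSeq annotation of GRCm38.p6 the cluster held 22 numbered protein-coding Mup genes between chr4:59956804-62150841. From its start, the members lay in the order Mup4 (chr4:59956804-59960667), Mup2 (chr4:60135913-60139977), Mup1 (chr4:60498012-60501960), Mup5 (chr4:61831319-61858043), Mup20 (chr4:62011337-62054143), Mup3 (chr4:62083476-62087317) and Mup21 (chr4:62147832-62150841). Many of these genes are near-identical copies, and a probe named for 1 of them may also read others. The probe sequences were not used here, so the probes are called by the gene and probe identifier they are annotated with.

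**Figure D1:**
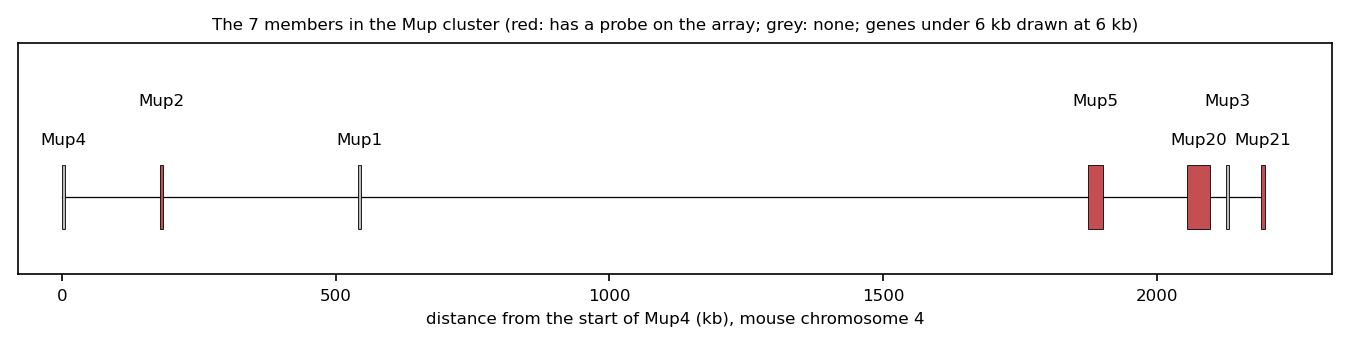
Positions of the 7 members along the Mup cluster, drawn as distance in kb from the start of Mup4, with genes that have an array probe in red and the others in grey. Mup21, the member with the largest difference between ethanol-fed and control mice, lies at the far end of the cluster from Mup4 and Mup2.

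The regions upstream of Mup21 and Mup2 are shown because these members behaved most differently in the data below. Each is the stretch of 250 bases before the start that the RefSeq promoter table gives (GRCm38.p6, minus strand), for Mup21 at chr4:62150842-62151091 and for Mup2 at chr4:60139857-60140106. The table's start of Mup2 lies inside the gene interval given above, so that part of its window overlaps the annotated gene. Capitals mark ATCAAT, the core letters bound by the liver factor HNF6.
Mup21: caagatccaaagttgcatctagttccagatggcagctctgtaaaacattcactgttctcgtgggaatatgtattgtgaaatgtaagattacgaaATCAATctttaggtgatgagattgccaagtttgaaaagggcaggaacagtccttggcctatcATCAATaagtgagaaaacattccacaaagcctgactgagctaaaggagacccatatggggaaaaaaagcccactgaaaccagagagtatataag
Mup2: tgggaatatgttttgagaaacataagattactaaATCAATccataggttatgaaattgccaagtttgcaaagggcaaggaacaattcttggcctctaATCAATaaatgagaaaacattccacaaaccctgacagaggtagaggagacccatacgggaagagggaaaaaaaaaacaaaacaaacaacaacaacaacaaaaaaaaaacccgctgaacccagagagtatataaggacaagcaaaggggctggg
Of the 7 members, 4 had a window in the RefSeq promoter table (Mup2, Mup3, Mup4 and Mup21). Each of these 4 windows held 2 copies of ATCAAT, a number reached by 0.609% of all 32851 windows of that length, searched on both strands. In Mup21 the copies lay 156 to 151 and 94 to 89 bases before the start, and in Mup2 they lay 216 to 211 and 153 to 148 bases before it. None of the 4 windows held TTCNNNGAA, the letters of a STAT5 site (in 7.02% of all windows), ACANNNTGT, a glucocorticoid receptor palindrome (5.84%), or TTGCNNAA, letters of a C/EBP site (9.56%). TATAAA was found in the Mup4 window and not in the other 3 (12.4% of all windows). Those 3 read TATATAAG near the start, which a search for the exact letters TATAAA passes over. The search therefore does not show that they lack a TATA box. The Mup21 window was 89.5% identical to that of Mup3, which has no probe (229 of 256 alignment columns, gaps counted). Against the Mup2 window the value was 53.9% (167 of 310 columns). The Mup2 window is shifted along the sequence, since TATATAAG ends the Mup21 window while further bases follow it in Mup2. Between the ATCAAT copies and TATATAAG, Mup2 also has a longer A-rich stretch than Mup21, a difference in the sequence itself. The positions of the ATCAAT copies reflect both. Unmatched ends and this stretch both enter that value, and their shares were not separated. It therefore does not measure how alike the stretch shared by both windows is.

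Liver RNA was read on 1-colour Illumina BeadChips, whose scanner signal is a brightness in arbitrary units. Arrays detected between 10631 and 11526 probes each, and precision is limited by having 4 arrays per group. The array identifiers place DADS and garlic oil arrays on 1 chip and alcohol and control arrays on the other. Chip and group therefore cannot be told apart in any comparison of DADS or garlic oil with alcohol or control, whereas alcohol against control and garlic oil against DADS were read within a chip, on which the groups still occupied different positions. The 8 hepatocyte markers (albumin and transthyretin among them) were all tested and averaged between 13.65 and 13.97 on the log2 scale over the 16 arrays. In garlic oil against control 1 of them was higher by limma's adjusted p, and in the other 5 comparisons 0 of 8 were called, with 0 to 3 at an unadjusted p under 0.05. Alcohol replicate 1 stood apart in pancreatic acinar markers (4 of 14 tested), at a mean log2 level of 15.72 against at most 7.72 on the other arrays. Its exclusion left Mup21 at -1.72 in alcohol against control (adjusted p = 0.0128) and at -2.53 in DADS against alcohol (adjusted p = 0.00268, both limma), tests that are described next.

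Mup21 was the member probe that was lower in alcohol than in control mice. Its probe ILMN_2818498 gave scanner signals of 701.5, 1169.6, 894.5 and 1863 in DADS mice. It gave 2865, 2931, 3712 and 3620.5 in garlic oil mice. It gave 5056, 5346, 6654 and 3029.6 in alcohol mice and 17599.9, 14513, 17884 and 12691 in control mice. All 4 alcohol arrays lay below all 4 control arrays, and all 4 DADS arrays lay below every other array. Garlic oil arrays lay below control arrays and above DADS arrays but overlapped alcohol arrays, through alcohol replicate 4.

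Differences between groups were tested on the log2 scale after background correction and quantile normalization, in 1 limma fit of the 16 arrays. They are given as the log2 difference ± SE (n = 4 mice per group), and a probe was called where its p, adjusted by the Benjamini-Hochberg method over the 11938 probes tested, was under 0.05. Mup21 was 3.29-fold lower in alcohol than in control mice (-1.72 ± 0.30, adjusted p = 0.00399). This call held without each array in turn, with log2 differences between -1.90 and -1.44. In a whole liver sample, fewer cells making a transcript and less of it per cell cannot be told apart.

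DADS mice had 5.75-fold less Mup21 signal than alcohol mice (-2.52 ± 0.30, adjusted p = 0.000624). Against control mice the DADS difference was 18.9-fold (-4.24 ± 0.30, adjusted p = 1.31e-07). Mup21 did not pass in garlic oil against alcohol mice (-0.72, 95% interval -1.35 to -0.08, adjusted p = 0.213), nor without alcohol replicate 4, the lowest of that group (-0.99, adjusted p = 0.0790). It was 5.42-fold lower in garlic oil than in control mice (-2.44 ± 0.30, adjusted p = 7.00e-05). Within the chip they shared, garlic oil mice had 3.50-fold more Mup21 signal than DADS mice (1.81 ± 0.30, adjusted p = 0.00633), at doses that differed between a single compound and a mixture.

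**Figure D2:**
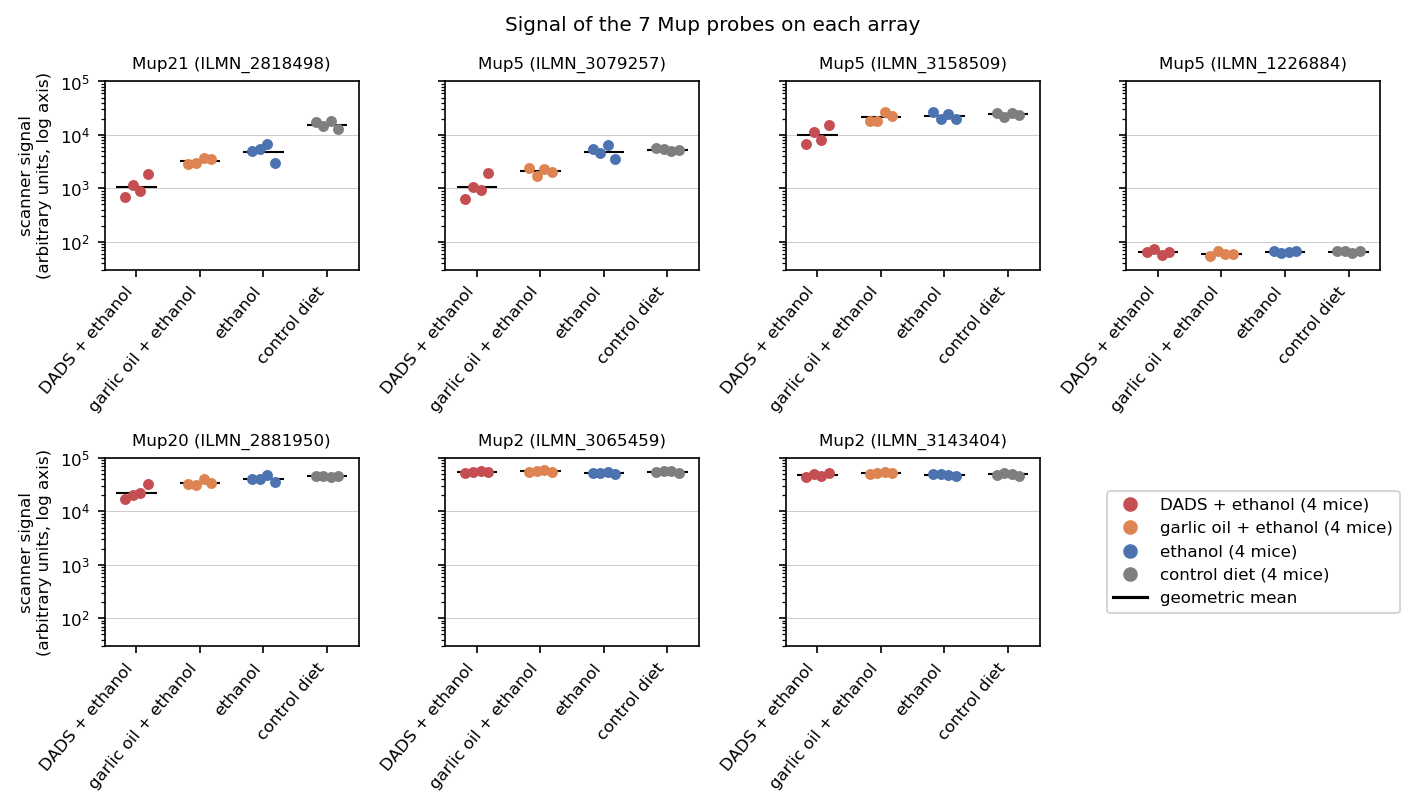
Scanner signal (arbitrary units, log axis) of the 7 Mup probes on each of the 16 arrays, with 1 point per mouse and a line at the geometric mean of each group. The 4 alcohol points lie below the 4 control points for Mup21 alone, the DADS points lie below the alcohol points for Mup21, both detected Mup5 probes and Mup20, and the Mup2 points stay near the top of the range in all groups.

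Mup5, a member also known from secretory glands of the head, was lower in DADS mice and not detectably different between alcohol and control mice. Its probe ILMN_3079257 gave signals of 625.9, 1044, 921 and 1959 in DADS mice. It gave 2386.5, 1687, 2321 and 1982 in garlic oil mice. It gave 5369, 4671, 6385 and 3543 in alcohol mice and 5723, 5374, 4982 and 5154 in control mice. Every DADS and garlic oil array was below every alcohol and control array, while DADS replicate 4 reached into the range of the garlic oil arrays.

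This probe was 6.06-fold lower in DADS than in alcohol mice (-2.60 ± 0.29, adjusted p = 0.000316) and 6.70-fold lower than in control mice (-2.74 ± 0.29, adjusted p = 1.19e-05). In garlic oil mice it was 2.62-fold lower than in alcohol mice (-1.39 ± 0.29, adjusted p = 0.0256) and 2.89-fold lower than in control mice (-1.53 ± 0.29, adjusted p = 0.00197). The garlic oil call against alcohol did not hold without garlic oil replicate 2 (adjusted p = 0.0574), garlic oil replicate 4 (0.0619), alcohol replicate 1 (0.0534), alcohol replicate 2 (0.0805) or alcohol replicate 3 (0.0724), with log2 differences in those fits between -1.43 and -1.28. Alcohol against control gave -0.14 with a 95% interval from -0.75 to 0.46. Garlic oil mice had 2.31-fold more of this signal than DADS mice (1.21 ± 0.29, adjusted p = 0.0433). That call was lost without any 1 array other than DADS replicate 4, with adjusted p between 0.0636 and 0.112, and in 15 of 21 alternatives in all.

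The other detected Mup5 probe, ILMN_3158509, gave signals of 6815, 11567, 7926 and 15254 in DADS mice and 18039.9, 17883.5, 27446 and 22899 in garlic oil mice. It gave 26964, 19778, 24829.5 and 20213 in alcohol mice and 26141.5, 21329.7, 26278 and 23636 in control mice. Only the DADS arrays stood apart, all 4 of them below the other 12. DADS mice were 2.74-fold lower than alcohol mice (-1.45 ± 0.21, adjusted p = 0.00185) and 2.97-fold lower than control mice (-1.57 ± 0.21, adjusted p = 0.000128). Garlic oil mice were 2.25-fold higher than DADS mice (1.17 ± 0.21, adjusted p = 0.00944), a call that did not hold when these groups were normalized and fitted alone (1.16, adjusted p = 0.0741). Garlic oil against alcohol (-0.28, 95% interval -0.72 to 0.16), garlic oil against control (-0.40, -0.84 to 0.04) and alcohol against control (-0.12, -0.56 to 0.32) did not pass. The 2 Mup5 probes thus gave calls of the same direction for DADS, and a call for garlic oil against alcohol in 1 of them. The Mup5 probe ILMN_1226884 gave between 54.0 and 73.0 on the 16 arrays, which is below detection on each, and has no level here. All 3 probes are annotated to the same Mup5 transcript. Whether the 2 bright ones read Mup5 or other Mup transcripts was not tested, so the differences above belong to these probes.

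Mup20, the gene of the pheromone darcin, was lower in DADS mice than in alcohol and control mice. Its probe ILMN_2881950 gave signals of 16775.5, 20127, 22303 and 33170.3 in DADS mice and 32036, 30775, 39928 and 34743 in garlic oil mice. It gave 39762, 41296.5, 48819.5 and 35048 in alcohol mice and 46267, 46321, 43305 and 45376 in control mice. DADS arrays lay below all alcohol and control arrays, and DADS replicate 4 lay within the garlic oil range. DADS mice were 2.08-fold lower than alcohol mice (-1.05 ± 0.19, adjusted p = 0.00625) and 2.21-fold lower than control mice (-1.15 ± 0.19, adjusted p = 0.000698). The call against alcohol did not hold when these groups were normalized and fitted alone (-1.05, adjusted p = 0.0645).

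In garlic oil mice, Mup20 did not pass against alcohol (-0.41, 95% interval -0.80 to -0.02, adjusted p = 0.257) or against control mice (-0.50, -0.89 to -0.11, adjusted p = 0.0720), although all 4 garlic oil arrays lay below all 4 control arrays. Garlic oil against DADS gave 0.65 ± 0.19 (adjusted p = 0.0840), and this difference passed without DADS replicate 4 (0.88, adjusted p = 0.00424). Alcohol against control gave -0.09, with a 95% interval from -0.48 to 0.30. In that comparison the Mup20 signals were high, at 59.2% to 82.7% of the highest signal of their array in alcohol and 71.1% to 80.4% in control mice. Whether signals this high understate a difference was not tested.

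Mup2, a main urinary MUP gene of the liver, gave 0 limma calls with either probe in the 6 comparisons, and 0 at an unadjusted p under 0.05. Its probe ILMN_3065459 gave signals between 52878.5 and 56753 in DADS, 55146 and 59264 in garlic oil, 50958 and 55880.3 in alcohol and 51950.6 and 57917 in control mice. These signals were 86.1% to 95.5% of the highest signal on their own array, so the room left above them was small. Its probe ILMN_3143404 gave 44714 to 53533 in DADS, 51019 to 54228 in garlic oil, 46903 to 49767.5 in alcohol and 46974 to 53294 in control mice, which was 74.9% to 90.2% of the highest signal of each array.

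The groups of both Mup2 probes overlapped in each comparison on the log2 scale, although the scanner signals of ILMN_3143404 on the 4 garlic oil arrays were all above those on the 4 alcohol arrays. For ILMN_3065459 and ILMN_3143404 in turn, DADS against alcohol gave -0.07 (95% interval -0.27 to 0.13) and -0.15 (-0.36 to 0.06). Alcohol against control gave 0.02 (-0.18 to 0.22) and 0.06 (-0.15 to 0.27). Garlic oil against alcohol gave -0.01 (-0.21 to 0.19) and -0.03 (-0.24 to 0.18). The signs of such small values moved with the scaling, and whether a signal this close to the top of the scale could show a change in transcript level was not tested. The probe ILMN_2953807, annotated to Mup6, which is not among the 7 members, was also bright, with signals between 37679 and 52361. It gave 0 limma calls in the 6 comparisons (1 at an unadjusted p under 0.05, in DADS against control at -0.25 with an adjusted p of 0.126). Unlike the Mup2 probes, its log2 values were all lower in DADS than in control mice and all higher in garlic oil than in DADS mice. Of all tested probes, 11.6% and 3.03% were so, and its scanner signals overlapped in both.

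Over the 6 tested member probes, alcohol against control gave 1 call, lower (Mup21), where 1.56% of all tested probes were called lower and 1.71% higher. It was also the 1 member probe without overlap, against 6.59% of all tested probes with all alcohol arrays below all control arrays. The median log2 difference of the 6 was -0.10, against -0.02 over all tested probes. DADS against alcohol gave 4 calls, all lower and all without overlap, in 3 genes (Mup21, Mup5 and Mup20). Of all tested probes, 1.51% were called lower and 1.05% higher in that comparison and 4.24% had all 4 DADS arrays below all 4 alcohol arrays. The median of the 6 was -1.25, against 0.02 over all tested probes. By p, the Mup5 probe ILMN_3079257 ranked 2 and Mup21 ranked 3 among the 11938 probes of DADS against alcohol.

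Garlic oil against alcohol gave 1 lower call, of Mup5, against a background of 0.854% called lower and 0.57% higher. Here 2 member probes, ILMN_3079257 and Mup20, had all garlic oil values below all alcohol values on the log2 scale, as had 5.16% of all tested probes, and the median of the 6 was -0.34 (all tested probes -0.01). Garlic oil against DADS gave 3 higher calls, for Mup21 and both Mup5 probes, against 0.796% of all tested probes (0.821% lower), with a median of 0.91 (all tested probes -0.01). The 2 of them without overlap, Mup21 and ILMN_3158509, compare with 3.03% of all tested probes. DADS against control gave 4 lower calls, all without overlap, against 8.01% of all tested probes called lower, 8% called higher and 11.6% with all DADS arrays below. Garlic oil against control gave 2 lower calls, against 8.87% of all tested probes called lower and 8.8% higher, and 3 member probes without overlap, against 13.1%. The comparisons share arrays with each other, alcohol arrays in 3 of them and control arrays in 3, so the directions are not independent of each other. The 5 probes not called in alcohol against control had estimates between -0.14 and 0.06.

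**Figure D3:**
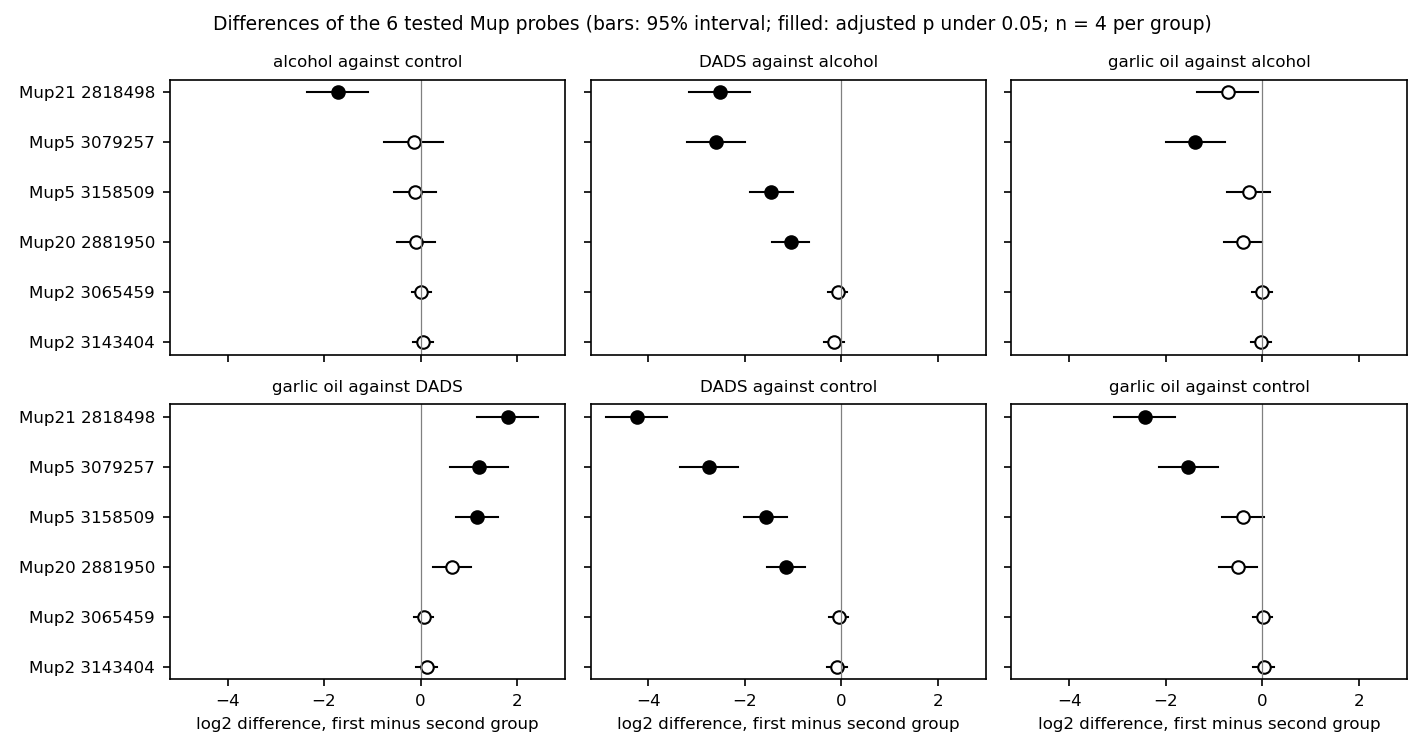
Log2 differences of the 6 tested Mup probes in the 6 comparisons, the group named on the left of each title minus the other, with 95% intervals as bars and filled points for adjusted p under 0.05 (limma, n = 4 per group). Mup21 alone is filled in alcohol against control at -1.72, 4 probes are filled in DADS against alcohol between -2.60 and -1.05, and both Mup2 probes stay between -0.15 and 0.12 in each panel.

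Because all probes of an array share its RNA and its scaling, the log2 ratio of Mup21 to other Mup probes on the same array was compared between groups, a comparison chosen after the values above were seen. The ratio of Mup21 to the Mup5 probe ILMN_3079257 was 0.18, 0.17, -0.04 and -0.07 in DADS mice, 0.27, 0.82, 0.70 and 0.82 in garlic oil mice, -0.09, 0.18, 0.08 and -0.25 in alcohol mice and 1.59, 1.42, 1.88 and 1.33 in control mice. The control arrays stood above all others, and DADS and alcohol arrays overlapped. Since Mup21 was set over the other probes because of its own difference, the ratios are a description with no test, and ratios to the Mup2 probes, near the top of the scale, are left out. In alcohol against control the mean ratio of Mup21 to both Mup5 probes and to Mup20 was lower without overlap, with differences between -1.63 and -1.58. The Mup20 signals in these groups reached into the range of the Mup2 probe ILMN_3143404, so the ratio to Mup20 carries a similar limit.

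In DADS against alcohol the ratio of Mup21 to ILMN_3079257 differed by 0.08, with overlap. Its ratio to the other Mup5 probe, ILMN_3158509, changed by -1.07 and that to Mup20 by -1.47, both without overlap. In garlic oil against alcohol, the ratio of Mup21 to ILMN_3079257 was higher by 0.67 without overlap, and that to Mup20 differed by -0.31 with overlap.

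**Figure D4:**
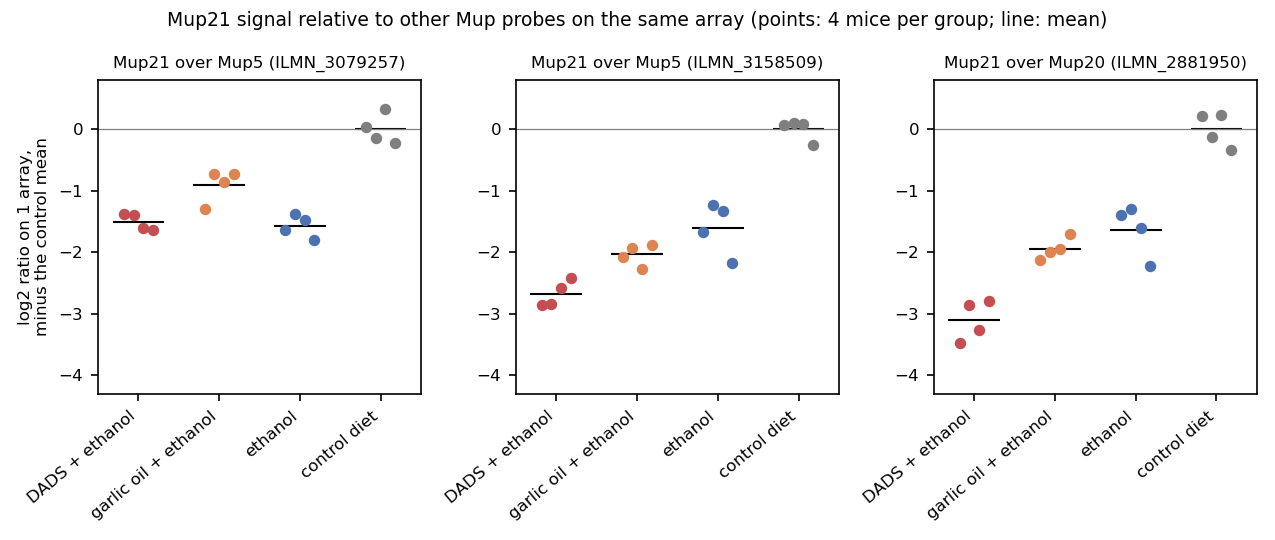
Log2 ratio of the Mup21 signal to the signal of each Mup5 probe and of Mup20 on the same array, minus the mean of the control arrays, with 1 point per mouse and a line at the group mean. Control points lie above all others in each panel, and DADS and alcohol points overlap for Mup5 ILMN_3079257 and do not overlap for the other probes.

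Mice of a group also differed from each other in MUP signal. DADS replicate 4 was the highest DADS array for 5 of 6 member probes, and alcohol replicate 4 the lowest alcohol array for 4 of 6. Mup21 and Mup5 ILMN_3079257 correlated at r = 0.93 over the 16 arrays and at r = 0.90 in their deviations from the group means, while the 2 Mup2 probes correlated at 0.33 and -0.13. These are descriptions of 16 arrays whose probes share RNA, chip and scaling. The Mup21 signal varied most between DADS mice (coefficient of variation 43.9%) and least between garlic oil mice (13.6%).

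Among 8256 genes outside the family (the brightest probe per gene), those whose log2 values followed Mup21 most closely over the 16 arrays were Aox3, an aldehyde oxidase (r = 0.96), Hao1, the hydroxyacid oxidase of peroxisomes (0.96), Elovl3, a fatty acid elongase (0.96), Iqub (0.96) and C8b, a subunit of complement C8 (0.95). For Mup5 they were C8a, another subunit of C8, with ILMN_3079257 (0.95) and Ces3b, a carboxylesterase, with ILMN_3158509 (0.95). For Mup20 the closest was Car3, a carbonic anhydrase (0.94), and for the Mup2 probes Bscl2 (0.81) and Dock8 (0.80). Aox3 averaged 12.12 in DADS, 12.81 in garlic oil, 13.13 in alcohol and 14.10 in control mice on the log2 scale, the same order of groups as Mup21. These correlations include the differences between groups and chips.

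The known upstream pathway of the Mup genes was read from a list of 25 genes of growth hormone signalling and other Mup regulators, of which 18 were tested. In alcohol against control, 0 were higher and 2 lower, in DADS against alcohol 2 were higher and 0 lower, and in garlic oil against alcohol 1 was higher and 0 lower. In DADS against control 3 were higher and 2 lower, where 8% of all tested probes were called higher and 8.01% lower. In garlic oil against control 3 were higher and 4 lower, against 8.8% and 8.87% of all tested probes. With 18 genes, such small counts are not read as a trait of the list. For the first 3 comparisons the list medians were -0.19, 0.15 and 0.24, against -0.01, 0.02 and -0.03 over all genes. These counts were small enough to turn on single arrays: without each array in turn, an alternative added after the data were seen, 0 to 3 were lower in alcohol against control, 1 to 2 higher in DADS against alcohol and 0 to 2 higher in garlic oil against alcohol. Socs2, a growth hormone target that restrains the receptor's signal, was 6.01-fold lower in alcohol than in control mice (-2.59 ± 0.56, adjusted p = 0.0170). This did not hold without control replicate 3 (adjusted p = 0.0579), control replicate 4 (0.0522) or alcohol replicate 1 (0.0553). Socs2 was 4.65-fold higher in DADS than in alcohol mice (2.22 ± 0.56, adjusted p = 0.0457), the direction opposite to Mup21, and this call was lost without any of the 8 arrays in turn (adjusted p between 0.0563 and 0.115).

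Cux2, a repressor of male-biased genes that is normally made in female liver, was detected on 4 of 4 DADS arrays, 2 of 4 garlic oil arrays and 0 of 8 alcohol and control arrays. It was at least 5.25-fold higher in DADS than in alcohol mice (adjusted p = 0.00543) and at least 4.99-fold higher than in control mice (adjusted p = 0.000853), the bound being set by the dimmest detected probes. Both calls held without each array in turn. Cebpa, a liver transcription factor, was 1.96-fold lower in alcohol than in control mice (-0.97 ± 0.26, adjusted p = 0.0481), and lost this call without any 1 of the 8 arrays other than alcohol replicates 2 and 4 (adjusted p up to 0.147). The growth hormone receptor gene Ghr, its target Igf1 and Bcl6, another regulator of sex-biased liver genes, passed in 0 of the 6 comparisons. Bcl6 gave -1.67 ± 0.64 in alcohol against control (adjusted p = 0.170), and Ghr gave -0.44 ± 0.20 in DADS against alcohol (adjusted p = 0.266), which passed without DADS replicate 4 (-0.69, adjusted p = 0.0330). Stat5b had a probe that did not pass the filter on dim signal.

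Other male-biased liver genes, a list of 22 with 18 tested, had calls in 1 direction only. In alcohol against control 5 were lower and 0 higher, in DADS against alcohol 6 and 0, and in garlic oil against alcohol 1 and 0, with medians of -0.97, -0.98 and -0.73. Of all tested probes, 1.56%, 1.51% and 0.854% were called lower in these comparisons, and the medians over all genes were -0.01, 0.02 and -0.03. In DADS against control 16 of 18 were lower (15 to 16 without each array in turn) and in garlic oil against control 15 of 18 (13 to 16), with medians of -1.92 and -1.54. Of all tested probes, 8.01% and 8.87% were called lower there, and the medians over all genes were -0.0006 and -0.04. In garlic oil against DADS, the treatment comparison within 1 chip, limma called 0 higher and 0 lower. Its median was 0.47 (all genes -0.03), with 5 higher at an unadjusted p under 0.05. Among them C6, a complement component, was 2.49-fold lower in alcohol than in control mice (-1.32 ± 0.29, adjusted p = 0.0170; 0.0600 without control replicate 1) and 3.45-fold lower in DADS than in alcohol mice (-1.79 ± 0.29, adjusted p = 0.00414). Elovl3 was lower in DADS than in alcohol mice (-3.19 ± 0.49, adjusted p = 0.00321), a size that rests on signals near background, with detection on 2 of 4 DADS arrays. The number of lower genes in DADS against alcohol was 3 without DADS replicate 3, alcohol replicate 2 or alcohol replicate 3, 4 without DADS replicate 1 and 13 without alcohol replicate 4. In alcohol against control it was 1 without control replicate 1, 2 without control replicate 3, alcohol replicate 1 or alcohol replicate 4, 3 without control replicate 2, control replicate 4 or alcohol replicate 3, and 7 without alcohol replicate 2. In garlic oil against alcohol the number was 7 without alcohol replicate 4, 2 without garlic oil replicate 3 and 0 without each of the other 6 arrays.

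Of 22 female-biased liver genes only 7 passed the filter, so this list speaks for the few that did. Some passed only through groups in which they were high. Cyp2b13, Cyp2c39 and Cux2 were undetected on all control arrays, and Cux2 also on all alcohol arrays. The filter thus favours higher over lower calls in this list, and the balance of the 2 directions is no test. In DADS against alcohol 5 were higher and 0 lower, in alcohol against control 2 and 0 and in garlic oil against alcohol 2 and 0, the last number being 1 without any of the 8 arrays other than alcohol replicate 4. Of all tested probes, 1.05%, 1.71% and 0.57% were called higher in these comparisons. In DADS against control 5 were higher and 0 lower, and in garlic oil against control 4 and 0, where 8% and 8.8% of all tested probes were called higher. In garlic oil against DADS limma called 0 higher and 0 lower, with 4 lower at an unadjusted p under 0.05. Cux2 stands both in this list and in that of the Mup regulators. Its calls in DADS against alcohol and DADS against control are counted in both. Cyp17a1, a steroid hydroxylase, was 5.69-fold higher in DADS than in alcohol mice (2.51 ± 0.44, adjusted p = 0.00611) and 6.69-fold higher in garlic oil than in alcohol mice (2.74 ± 0.44, adjusted p = 0.00589). Cyp2b9 was 3.76-fold higher in DADS than in alcohol mice (1.91 ± 0.33, adjusted p = 0.00575) and also higher in alcohol than in control mice (4.92 ± 0.33, adjusted p = 2.76e-07), where 2 of 4 control arrays detected it. Cyp2b9 is also a target of drug-sensing receptors.

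Genes that share the fold or the secretory route of the MUPs were called mainly in the treated groups against control. Calls were also most frequent there over all tested probes, so this is no trait of these genes. The shares were 8% higher and 8.01% lower in DADS against control, and 8.8% and 8.87% in garlic oil against control. Of 12 other lipocalin genes 8 were tested, and limma called 0 of them in alcohol against control, DADS against alcohol, garlic oil against alcohol and garlic oil against DADS, with 4, 1, 0 and 1 at an unadjusted p under 0.05. In DADS against control 3 were higher and 1 lower. Lcn2, an iron-siderophore binding protein of the acute phase (3.65 ± 0.64, adjusted p = 0.0013), and the acute-phase glycoprotein genes Orm1 (1.57 ± 0.40, adjusted p = 0.0132) and Orm2 (2.15 ± 0.56, adjusted p = 0.0149) were higher, and C8g, a subunit of complement C8, was lower (-0.61 ± 0.13, adjusted p = 0.00475). The Orm2 call was lost without DADS replicate 3 (adjusted p = 0.0522). Orm1 was also higher in garlic oil than in control mice (1.32 ± 0.40, adjusted p = 0.0311), a call lost without garlic oil replicates 1, 3 or 4 or control replicates 2 or 4 (adjusted p up to 0.0926). Of 25 abundant proteins secreted by hepatocytes 22 were tested, with 0 limma calls in alcohol against control, DADS against alcohol and garlic oil against alcohol (2, 1 and 4 at an unadjusted p under 0.05) and medians of -0.03, 0.01 and -0.01. Its 1 call in DADS against control (0.55 ± 0.13, adjusted p = 0.00916, higher) and its 1 call in garlic oil against DADS (-0.63 ± 0.13, adjusted p = 0.0223, lower) were both Itih4, an inter-alpha-trypsin inhibitor heavy chain. The second of these was lost without DADS replicate 3 or without garlic oil replicates 2, 3 or 4 (adjusted p up to 0.0654). Of 14 glucose and lipid regulators linked to MUP1, 12 were tested. G6pc, the glucose-6-phosphatase of gluconeogenesis, was 2.94-fold lower in DADS than in alcohol mice (-1.56 ± 0.21, adjusted p = 0.00123), and was the only call of that list there.

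Kupffer cell and macrophage markers were lower with DADS, and red cell markers were highest with garlic oil. Of 11 Kupffer cell and macrophage markers 8 were tested, and 7 were lower in DADS than in alcohol mice, with array means of 8.13 to 9.38 in DADS, 9.45 to 9.98 in garlic oil, 9.54 to 9.73 in alcohol and 9.23 to 9.61 in control mice on the log2 scale. Of 5 red cell markers 3 were tested, with array means of 9.35 to 9.90 in DADS, 11.14 to 11.37 in garlic oil, 10.14 to 10.54 in alcohol and 10.47 to 10.75 in control mice. In DADS against alcohol 1 of the 3 was lower, as was 1 of 7 endothelial markers, where 1.51% of all tested probes were called lower. There limma called 0 neutrophil, lymphocyte, stellate cell, cholangiocyte or pancreatic acinar markers (0, 1, 2, 0 and 0 at an unadjusted p under 0.05). In garlic oil against alcohol 2 red cell markers were higher (0.57% of all tested probes). In garlic oil against DADS, 4 macrophage markers and 3 red cell markers were higher, where 0.796% of all tested probes were called higher. Their part in the Mup differences was not tested.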

How the data were processed

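Per the labels, total RNA of 16 frozen livers was made into biotin-labelled cRNA (500 ng per mouse). Scanner files of the 25697 probes, per the file headers, give a deposited intensity on a linear scale, whose array medians differ, with a detection p-value. A further deposited intensity table, holding all 16 arrays, was normalized by the authors, by a method on which the sources used here are silent. It had 0 columns of other samples. The submitters' processing notes list GenomeStudio, lumi and limma, with no versions.

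Signals were corrected and normalized with neqc (offset 16, negative controls inferred from the detection p-values) in limma 3.58.1 under R 4.3.3. The filter on dim signal kept the 11938 probes detected (p under 0.05) on 4 or more of the 16 arrays. All comparisons came from 1 limma fit with 4 group means (12 residual degrees of freedom), moderated and two-sided, with Benjamini-Hochberg adjustment over all tested probes and at 0.05. Folds of a gene undetected in 1 group are bounds against the dimmest detected probes. Of the probes, 23978 had 1 gene symbol and 1719 had none. Lists used the brightest probe per gene. The text names every member probe, Socs2, Stat5b, Ghr, Igf1, Cux2 and Bcl6 whatever their values, up to 4 called genes by smallest p per list and comparison, and up to 5 genes per probe by likeness. Tested on simulated data of alcohol against control (11938 probes, 10 runs), the fit recovered 22.2% of differences of 0.5, 81% of 1 and 98.8% of 2, with 4.54% of calls false. The simulated noise was normal and independent between probes, whereas real probes share RNA, chip and scaling. These shares therefore describe the fit and do not estimate the share of false calls here.

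Alternatives were the authors' table, other background and scaling settings, other filters, 1 probe per gene, array weights, a robust trend, the groups compared alone, the replicate number as a block and each array left out. The Mup members, the lists and the comparisons were chosen with earlier results of these data known. Replicates of a group correlated between 0.972 and 0.992, and no deposited columns were identical. Replicate numbers showed no consistent pairing of mice across groups: of 24 same-number pairs, 8 correlated over 0.1 in their deviations from the group means (range -0.39 to 0.41). In alcohol against control, where mice were pair-fed, the values were 0.22, 0.10, -0.01 and 0.07 for numbers 1 to 4. Numbers 1, 2 and 4 matched best with themselves there. Such weak values from 4 pairs cannot show whether the numbers mark pair-fed mice.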

Additional observations from a re-analysis of the deposited data

Results flagged for a closer look

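The Mup2 probe ILMN_3065459 had 1 array apart from the rest of its group. In garlic oil mice, replicate 2 stood at 15.77 on the log2 scale while the other 3 arrays all stood at 15.76, so that the whole range of the group lay between it and them. The absolute gap was 0.01. The scanner signals of the same arrays were 55146, 57119, 59264 and 55488 for replicates 1 to 4, and replicate 2 was not the highest of them. The other 3 arrays were equal because the probe had the same rank (8 from the top) on each, to which quantile normalization gives 1 value, while on replicate 2 its rank was 7. This was 1 of 24 groups of 4 arrays examined over the 6 tested probes.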

How the results depend on the processing

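Mup21 was called lower in alcohol against control mice under each of the 21 alternatives, which gave 1 call each, and DADS against control gave 3 to 4 calls. DADS against alcohol kept 4 calls without each array in turn. With the replicate number as a block and these groups alone in the fit, an alternative added after the data were seen, it gave 0 (adjusted p between 0.0624 and 0.185), with log2 differences as in the fit of all groups: -2.60 and -1.45 for the Mup5 probes, -2.52 for Mup21 and -1.05 for Mup20, and with the replicate block in the fit of all groups the call that was lost was that of Mup5 ILMN_3079257 in garlic oil against DADS (adjusted p = 0.0703). The replicate numbers showed no consistent pairing of mice between these groups, and the cause was not tested. Garlic oil against alcohol gave 0 calls in place of 1 on the scanner signal, with no filter and with 1 probe per gene (which drops the called Mup5 probe), and 0 to 1 without each array in turn. Garlic oil against control gave 1 call in place of 2 with 1 probe per gene. Garlic oil against DADS gave 1 call in place of 3 when the groups were fitted alone, and 2 to 4 without each array. Mup20 in garlic oil against control passed with array weights (-0.49, adjusted p = 0.0449), with the groups alone (-0.52, adjusted p = 0.00951) and with the replicate block and the groups alone (-0.50, adjusted p = 0.0329). The exact permutation test of this value and of Mup20 in garlic oil against alcohol (-0.41) gave p = 0.0286 each, unadjusted and the smallest that 4 against 4 arrays allow. The lack of overlap on the log2 scale, already seen, fixes this p, so the test adds nothing to it. In garlic oil against alcohol the scanner signals of Mup20 did overlap.

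Uncalled values that changed sign were small. For Mup2 ILMN_3065459 these were -0.1221 with median scaling and -0.058 on the scanner signal in alcohol against control, and -0.0067 to 0.0388 without each array in turn (below 0 without alcohol replicate 3). They were 0.0197 and 0.0527 with the same 2 scalings in DADS against alcohol. In garlic oil against alcohol they were 0.14 with median scaling, 0.0978 on the scanner signal, and -0.0291 to 0.0164 without each array in turn (above 0 without alcohol replicate 2 or 3). In garlic oil against control they were -0.0981 in the authors' table, and -0.0008 to 0.0152 without each array in turn (below 0 without control replicate 4). For Mup2 ILMN_3143404 they were -0.1051 and -0.041 (median scaling, scanner signal) in alcohol against control, 0.0188 (scanner signal) in DADS against alcohol, 0.1646 and 0.1223 in garlic oil against alcohol, and -0.0588 (authors' table) in garlic oil against control. Mup5 ILMN_3079257 gave -0.2525 to 0.0552 in alcohol against control without each array in turn (above 0 without alcohol replicate 4). Median scaling moved the median of all probes by 0.15 in DADS against alcohol, 0.18 in DADS against control and 0.12 in garlic oil against control, and the scanner signal by 0.11 and 0.18 in the DADS comparisons. With 4 mice per group and each treatment on a chip apart from alcohol and control, the precision and the chip limit what can be read from the treatment comparisons, and the Mup2 probes are limited by a signal near the top of the scale.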
